A study of Homo sapiens with 4 samples.

Results

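The genes described here are 10 markers of intestinal epithelial and mesenchymal identity in HCT116 cells, an established human colorectal carcinoma line. Examined were the peaks of the deposited TAF3, H3K4me3 and RNAPII lists that overlapped, by at least 1 bp, the hg19 span of a gene widened by 2 kb on each side. KRT8 and KRT18 are neighbours and shared a span, so the 10 genes gave 9 spans. Together the spans held 48 of 97318 peaks, which were 13 of 17887 TAF3 peaks, 10 of 17975 H3K4me3 peaks and 25 of 61456 RNAPII peaks.

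The series holds 1 chromatin immunoprecipitation library each for TAF3, H3K4me3 and RNAPII and 1 library of input DNA, all from HCT116 monolayers at passages 15 to 18, fixed for 10 min in 1% formaldehyde. TAF3 belongs to TFIID, a general transcription factor, and was precipitated with an antiserum to its residues 290 to 389. H3K4me3 is histone H3 trimethylated at lysine 4, a mark of promoters, and RNAPII is RNA polymerase II. After removal of duplicates 17411155 TAF3, 12560129 H3K4me3, 16841238 RNAPII and 19185386 input tags remained, and the duplicates had been 14.2% of TAF3, 40.2% of H3K4me3, 16.1% of RNAPII and 2.57% of input tags. All values come from this single cell line and from 1 library per antibody, so replicate error could not be measured and intervals on tag counts cover counting error only.

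Epithelial cells are held together by E-cadherin, the product of CDH1, and by EpCAM, and their cytoskeleton is built on the keratin pair of KRT8 and KRT18. In the gut the homeobox proteins CDX1 and CDX2 switch on intestinal genes, among them markers of mature cells such as villin (VIL1, a brush border protein), keratin 20 (KRT20) and the goblet cell mucin MUC2. Vimentin (VIM) is the intermediate filament of mesenchymal cells. At an active promoter TFIID nucleates the preinitiation complex that recruits RNAPII, and the PHD finger of TAF3 binds H3K4me3.

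The upstream sequences of genes that differed in the 3 libraries are shown to let their base composition be compared. RefSeq promoters were matched by symbol for 5 of the 10 genes, and the sequences are from RefSeq on GRCh38.p14, each running over the 250 bases before the annotated start. Their build differs from that of the peaks, so these bases were not placed inside or outside any peak. Capitals mark CpG dinucleotides. CDX2 carried filtered peaks of all 3 antibodies, VIM filtered peaks of H3K4me3 and RNAPII, MUC2 only small peaks beside the gene, and KRT20 none. The strongest VIM peaks of H3K4me3 and RNAPII had their summits 2.39 and 2.52 kb inside the span. The VIM window stands before the annotated start, so its composition need not be that of the bases under those peaks. The KRT8 entry starts inside the annotated gene and is not shown.
CDX2, chr13:27969316-27969565, strand minus: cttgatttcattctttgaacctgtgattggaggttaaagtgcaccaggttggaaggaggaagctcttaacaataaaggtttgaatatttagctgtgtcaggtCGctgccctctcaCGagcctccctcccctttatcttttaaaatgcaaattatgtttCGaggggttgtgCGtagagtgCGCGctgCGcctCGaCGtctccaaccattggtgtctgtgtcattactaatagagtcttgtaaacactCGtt
VIM, chr10:17227991-17228240, strand plus: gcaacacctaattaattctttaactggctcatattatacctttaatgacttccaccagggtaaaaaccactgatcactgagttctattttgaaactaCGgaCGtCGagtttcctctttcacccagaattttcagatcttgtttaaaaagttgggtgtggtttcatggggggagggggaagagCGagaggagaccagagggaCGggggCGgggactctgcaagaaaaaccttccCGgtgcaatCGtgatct
MUC2, chr11:1074624-1074873, strand plus: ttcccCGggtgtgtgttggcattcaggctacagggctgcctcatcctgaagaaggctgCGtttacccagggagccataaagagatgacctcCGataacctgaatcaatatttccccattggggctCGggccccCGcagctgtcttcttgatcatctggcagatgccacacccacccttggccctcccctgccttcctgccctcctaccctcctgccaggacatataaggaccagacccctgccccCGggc
KRT20, chr17:40885243-40885492, strand minus: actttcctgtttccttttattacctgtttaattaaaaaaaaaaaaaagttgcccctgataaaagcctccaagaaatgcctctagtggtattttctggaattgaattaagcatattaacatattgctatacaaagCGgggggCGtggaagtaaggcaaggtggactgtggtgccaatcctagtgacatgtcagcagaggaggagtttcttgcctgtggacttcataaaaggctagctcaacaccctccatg

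CDX2 had 10 CpG dinucleotides in this window, VIM had 8, MUC2 had 6 and KRT20 had 2, beside a median of 11 (quartiles 3 and 23) over the 35116 promoters of the table. The window was 45.2% G and C for CDX2, 46.0% for VIM, 59.6% for MUC2 and 41.2% for KRT20, beside a median of 58%. KRT20, which had no peak, was lowest of these 4 in both, and CDX2 was near the median promoter in its CpG count. Both strands were searched for 4 short motifs. Of these the TATA core, spelled TATAA, lay in MUC2 on its own strand 28 bases upstream of the start, and in VIM on the opposite strand 217 bases upstream, while 18.9% of all promoters held it. The core of the element that CDX proteins bind, spelled TTTAT, was found in CDX2, MUC2 and KRT20, where 32.7% of all promoters held it, and in KRT20 the nearest match began 28 bases upstream on the opposite strand. The GC box, spelled GGGCGG, was found in VIM, 46 bases upstream, against 42.6% of all promoters. The sequence CCAAT was found in CDX2, MUC2 and KRT20, against 32.0%. The TATA core and the CDX core occurred together only in MUC2, where they did not overlap. A match is a string of letters and not a measured site.

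The 10 genes fell into 5 patterns of occupancy. CDH1, EPCAM, KRT8, KRT18 and CDX2 each carried peaks of TAF3, H3K4me3 and RNAPII that passed the authors' filter, which keeps peaks with a fold enrichment over 5 and a false discovery rate under 5%. VIM passed it for H3K4me3 and RNAPII and not for TAF3. MUC2 passed it for RNAPII alone, and CDX1 and VIL1 had only RNAPII peaks under the filter. KRT20 had no peak of any antibody in the full lists. Thus 5 of 10 genes had a filtered TAF3 peak, 6 a filtered H3K4me3 peak and 7 a filtered RNAPII peak. Without an hg19 annotation the same shares over all genes were not computed, so these counts describe the 10 genes and do not set them apart from others. These peaks mark occupancy and not transcript levels, but of the 9 epithelial and intestinal markers 4 (CDX1, VIL1, KRT20 and MUC2) lacked a called H3K4me3 peak in this colorectal line.

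**Figure D1:**
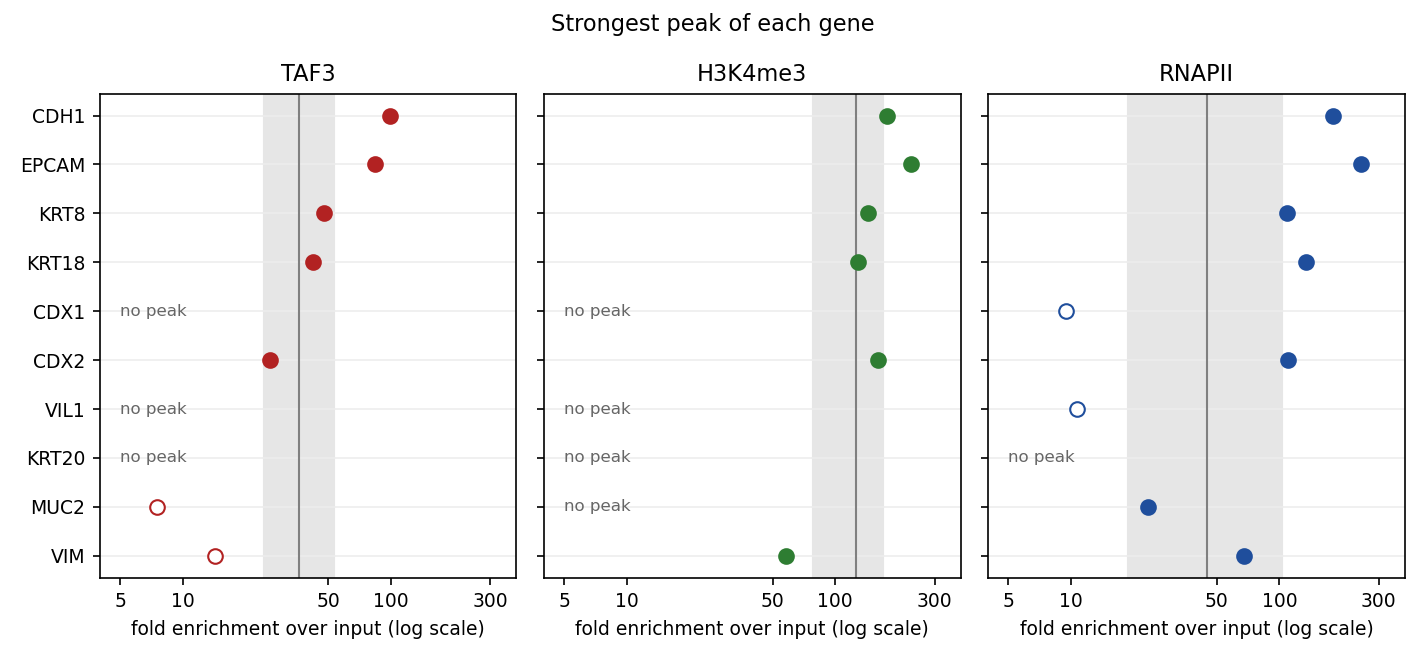
Fold enrichment over input (log scale) of the strongest peak of each gene in the TAF3, H3K4me3 and RNAPII lists, with KRT8 and KRT18 as the left and right parts of their shared span. Filled circles passed the authors' filter, open circles did not, and the grey band and line give the quartiles and median of each filtered list; CDH1 and EPCAM lie right of the band in all 3 panels.

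The peaks of these spans were also counted against the filter. Of the members, 5 of 13 TAF3 peaks, 7 of 10 H3K4me3 peaks and 13 of 25 RNAPII peaks passed it, where over the whole lists 65.8% of TAF3, 79.5% of H3K4me3 and 40.7% of RNAPII peaks did. The 8 TAF3 members under the filter had 16 to 68 tags and 6.12- to 14.3-fold enrichment, and the 12 RNAPII members under it had 12 to 30 tags and 6.85- to 13.4-fold enrichment. Of the 7 filtered H3K4me3 members, 5 overlapped both a filtered TAF3 and a filtered RNAPII peak, as did 80.6% of all filtered H3K4me3 peaks, a share too near that of 5 in 7 to set these genes apart.

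The adhesion genes CDH1 and EPCAM had the highest enrichment of TAF3 and RNAPII among the 10. At CDH1 (span chromosome 16, 68771 to 68869 kb), which is transcribed rightward, TAF3 was enriched 99.0-fold with 265 tags at chr16:68770878-68772550. H3K4me3 was enriched 176-fold with 806 tags at chr16:68770595-68772821, and RNAPII 180-fold with 360 tags at chr16:68770724-68771627. By fold enrichment the CDH1 TAF3 peak stood above 97.9% of the full TAF3 list, its RNAPII peak above 98.0% and its H3K4me3 peak above 82.3%. By tags per bp the TAF3 peak stood above 84.3%, the RNAPII peak above 99.3% and the H3K4me3 peak above 75.7%. The TAF3 summit lay 0.235 kb, the H3K4me3 summit 0.385 kb and the RNAPII summit 0.231 kb inside the left end of the span, the end at which transcription starts. Span ends were given to the nearest kb.

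EPCAM (chromosome 2, 47596 to 47614 kb), also transcribed rightward, had the strongest RNAPII and H3K4me3 peaks of the set. RNAPII was enriched 247-fold with 600 tags at chr2:47595883-47597552, which ranked 116 of 61456 RNAPII peaks. H3K4me3 reached 231-fold with 906 tags at chr2:47595733-47598187 and TAF3 83.8-fold with 388 tags at chr2:47595886-47597473. By fold enrichment the H3K4me3 peak stood above 95.6% and the TAF3 peak above 95.8% of their full lists. By tags per bp they stood above 77.4% and 98.2%. The TAF3 and RNAPII peaks began within a few bp of each other at the left end of the span, and the H3K4me3 peak extended past both on each side.

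The keratin span (chromosome 12, 53290 to 53347 kb) carried occupied regions toward both ends. KRT8 lies to the left and is read leftward, and KRT18 is the right-hand gene, but the annotated extent of KRT8 in RefSeq reaches into KRT18. Peaks of the right end can therefore not be given to KRT18 alone, and peaks were assigned to KRT8 or KRT18 by the side of the midpoint on which the summit fell. On the KRT8 side TAF3 was enriched 47.4-fold with 369 tags at chr12:53296938-53299217, H3K4me3 144-fold with 1180 tags and RNAPII 109-fold with 2075 tags. On the KRT18 side TAF3 was enriched 42.0-fold with 392 tags at chr12:53342324-53344300, H3K4me3 128-fold with 985 tags and RNAPII 134-fold with 1894 tags. The neighbours were thus alike in all 3 fold enrichments, and both lay above the medians of the filtered lists, which were 36.1 for TAF3, 126 for H3K4me3 and 44.8 for RNAPII.

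RNAPII at the keratin genes was set apart by its extent. The RNAPII peak on the KRT8 side, chr12:53288843-53299451, was 10609 bp wide and exceeded 98.9% of filtered RNAPII peaks in width, and that on the KRT18 side, chr12:53341462-53348399, was 6938 bp wide and exceeded 96.7%. The median filtered RNAPII peak was 1623 bp wide. By contrast the strongest RNAPII peak was 904 bp wide at CDH1 and 1670 bp at EPCAM. At CDH1 another filtered RNAPII peak, 27.3-fold with 62 tags, followed closely at chr16:68771696-68772570 and was 875 bp wide. The CDH1 width therefore depends on where the calls were split. RNAPII peaks covered 43.8% of the widened keratin span, 18.3% of the EPCAM span and 3.34% of the CDH1 span. Filtered RNAPII peaks alone covered 43.8%, 12.0% and 1.74% of them. These shares depend on what was called and on the length of each gene. The 5 RNAPII peaks of the keratin span, which covers 2 genes, held 4821 tags, 2368 on the KRT8 side and 2453 on the KRT18 side. The 6 peaks of EPCAM held 818 tags and the 5 of CDH1 held 491.

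**Figure D2:**
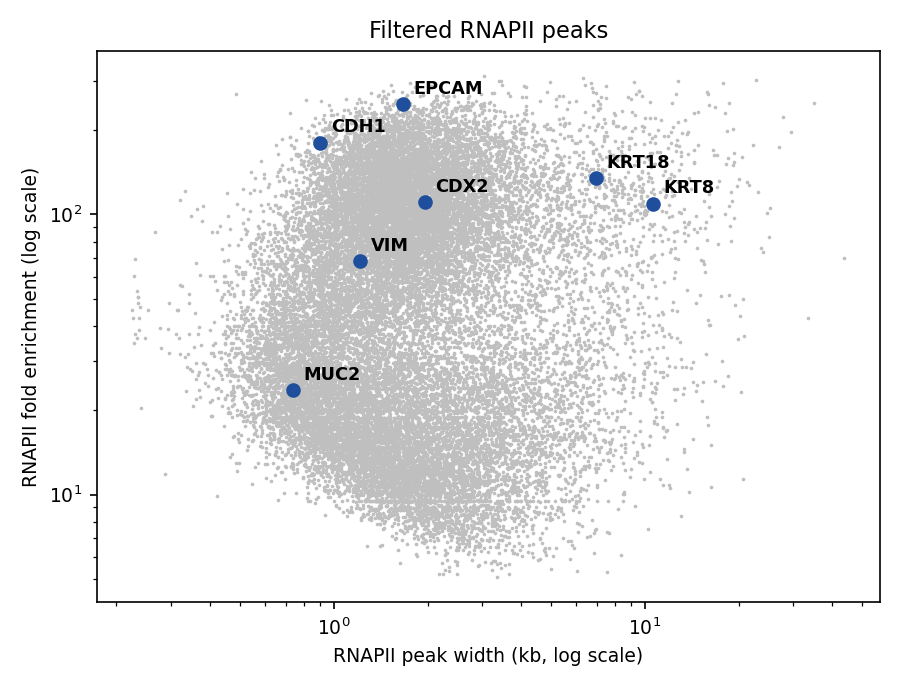
Fold enrichment (log scale) against width (kb, log scale) of all 25013 filtered RNAPII peaks in grey, with the strongest RNAPII peak of the 7 genes that passed the filter in blue. KRT8 and KRT18 lie at 10609 and 6938 bp, right of most peaks, whereas CDH1 and EPCAM lie higher and narrower. Another filtered CDH1 peak, close beside the strongest, is not marked in blue.

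Between the keratin ends were further RNAPII peaks with weak TAF3. RNAPII was enriched 30.2-fold at chr12:53299893-53302632, 16.3-fold at chr12:53318429-53321659 and 22.4-fold at chr12:53338060-53341269, and all 3 peaks passed the filter. They overlapped 5 TAF3 peaks of 6.12- to 12.4-fold and 2 H3K4me3 peaks of 11.1- and 7.58-fold, of which none passed. A weaker group lay inside CDH1, 5.80 kb from the left end of the span by its TAF3 summit. There a TAF3 peak of 11.2-fold (19 tags) met an RNAPII peak of 11.6-fold (21 tags). An H3K4me3 peak of 10.2-fold stood separately at 8.01 kb. Unlike the RNAPII peaks between the keratin ends, none of these CDH1 peaks passed the filter. Their false discovery rates were 25.4% for TAF3, 10.4% for RNAPII and 54.1% for H3K4me3.

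At EPCAM RNAPII also gathered beyond the right end. Peaks of 34.4-fold (72 tags) at chr2:47614974-47615764 and 18.3-fold (97 tags) at chr2:47615826-47617387 had their summits 1.52 and 2.99 kb past the end of the span, and both passed the filter. Neither overlapped a TAF3 or H3K4me3 peak of the full lists. Among all filtered RNAPII peaks 34.4% overlapped neither, compared with these 2 of 13 filtered RNAPII members. CDH1 had a lone RNAPII peak of 6.85-fold 1.12 kb past its right end, which did not pass. Inside EPCAM lay further RNAPII peaks of 8.95-, 12.0- and 13.4-fold, and none of them passed.

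**Figure D3:**
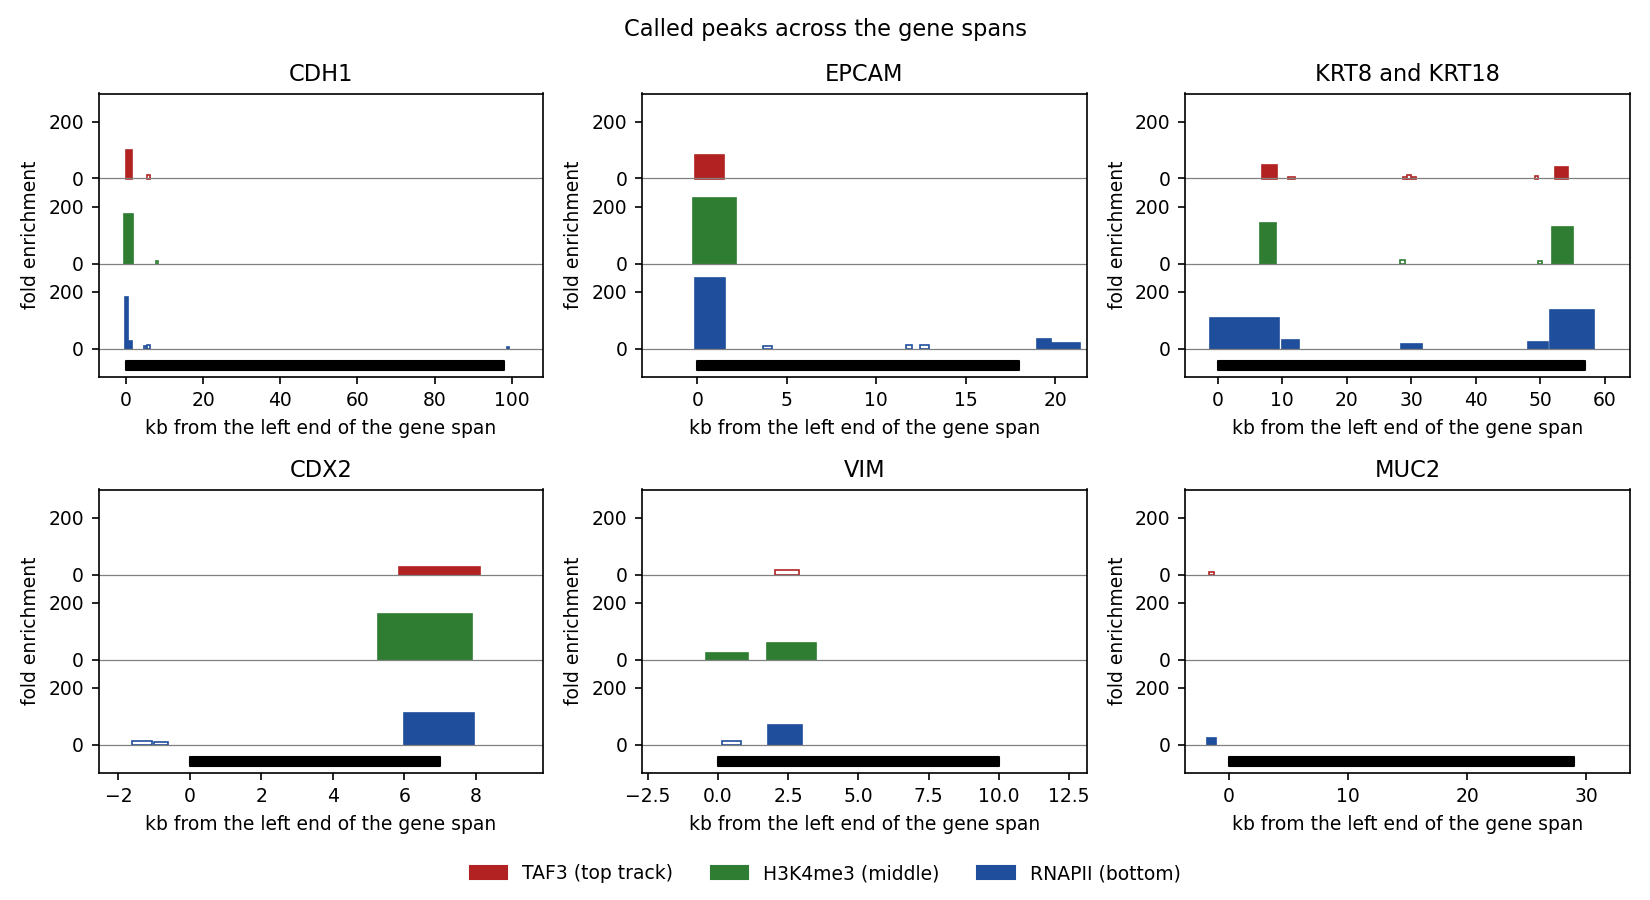
Called TAF3 (top track), H3K4me3 (middle) and RNAPII (bottom) peaks at 6 spans, drawn by width and fold enrichment against distance in kb from the left end of the span (black bar); filled peaks passed the authors' filter and open ones did not. CDH1 and EPCAM show stacked peaks at the left end, the keratins at both ends, CDX2 at the right end, VIM about 2.5 kb inside and MUC2 only left of the span.

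The intestinal regulators divided. CDX2 (chromosome 13, 28536 to 28543 kb), which is transcribed leftward, had peaks of all 3 antibodies around the right end of its span, its start of transcription. H3K4me3 was enriched 159.98-fold with 1193 tags at chr13:28541248-28543895 and RNAPII 110-fold with 588 tags at chr13:28541986-28543944, whereas TAF3 was enriched 26.1-fold with 321 tags at chr13:28541851-28544111. In the flank past the left end of CDX2 lay weak RNAPII peaks of 10.7-fold (20 tags) and 8.02-fold (12 tags), both under the filter. CDX1 (chromosome 5, 149546 to 149564 kb) had neither TAF3 nor H3K4me3. Its lone peak was RNAPII at chr5:149555095-149555537, enriched 9.49-fold with 21 tags and a false discovery rate of 16.8%. The nearest TAF3 peaks to CDX1 in the full list lay 162 kb to the left and 171 kb to the right of the widened span.

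CDX2 had less TAF3 fold enrichment than most promoters with as much H3K4me3. The filtered H3K4me3 peaks were divided by fold enrichment into 10 bins of equal size. Among the 1429 peaks in the bin of CDX2 (142.92- to 160.29-fold), its overlapping TAF3 peak stood above 19.7%, and the median of that bin was 38.7-fold. RNAPII at CDX2 stood above 48.5%, near the median of 112-fold. The TAF3 peak of CDX2 was wide, above 85.8% of the filtered list in width, and its tags exceeded 81.1% and its tags per kb 66.8% of filtered TAF3 peaks. TAF3 at CDX2 was thus low by fold enrichment and in the upper part of the TAF3 list by tags. In the full TAF3 list it stood above 52.9% by fold enrichment and above 78.1% by tags per bp.

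The adhesion and keratin genes were not low in the same comparison. In its bin CDH1 stood above 95.9% of H3K4me3 peaks for TAF3 and 88.3% for RNAPII, and EPCAM above 79.4% for TAF3 and 96.1% for RNAPII. KRT8 stood above 66.5% for TAF3 and 46.7% for RNAPII, and KRT18 above 63.8% and 77.0%. The keratins thus lay nearer the middle of their bins than the adhesion genes did. These ranks rest on 1 library each and carry no test.

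**Figure D4:**
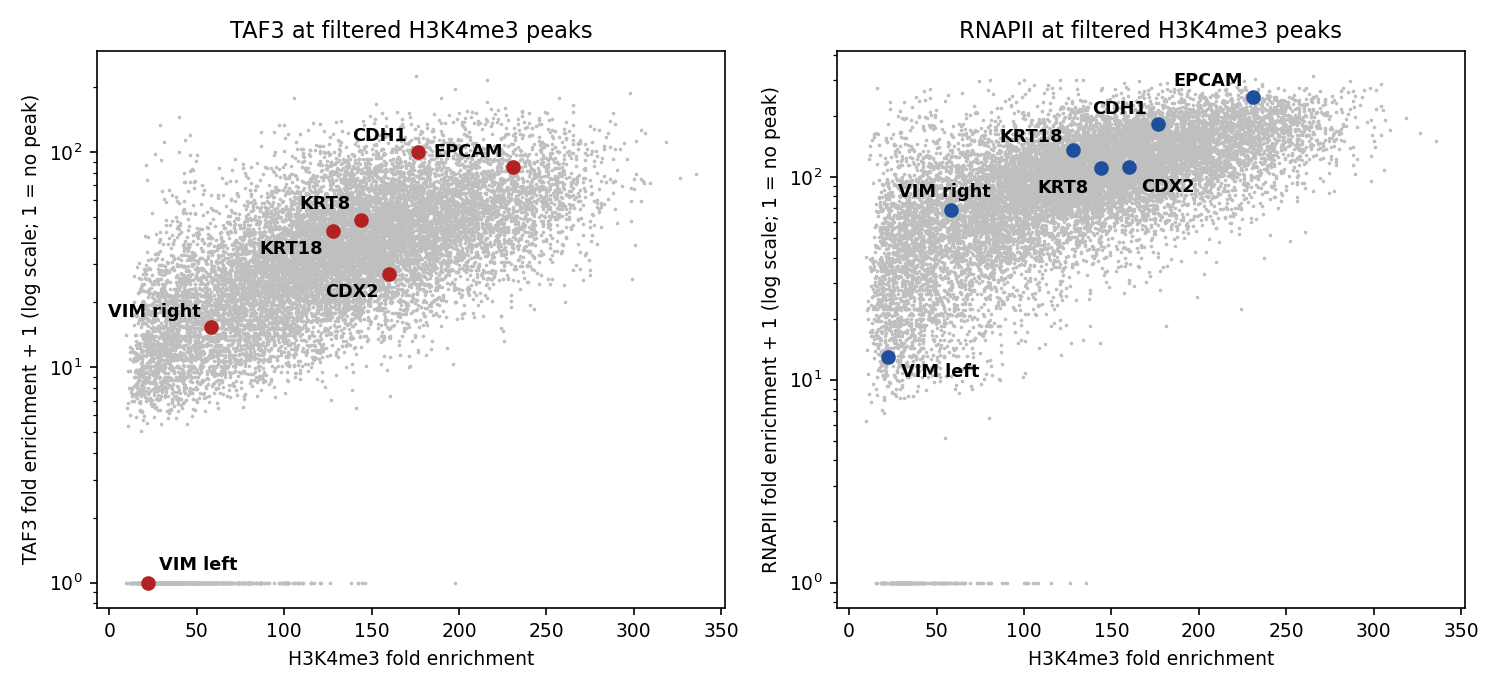
TAF3 (left) and RNAPII (right) fold enrichment plus 1 on a log scale, of the strongest overlapping peak of the full list, against H3K4me3 fold enrichment for the 14298 filtered H3K4me3 peaks (grey) and the 7 at these genes (coloured; the 2 VIM peaks are named left and right). CDX2 lies low for TAF3 at 26.1-fold while in the body of the cloud for RNAPII.

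The markers of mature intestinal cells carried little or nothing. At VIL1 (chromosome 2, 219284 to 219314 kb) the only members were RNAPII peaks of 10.7-fold with 12 tags and 9.49-fold with 17 tags, both under the filter and both in the right part of the span. The nearest TAF3 and H3K4me3 peaks lay 10.3 and 10.1 kb left of the widened VIL1 span. At KRT20 (chromosome 17, 39032 to 39041 kb) no list held a peak, and the nearest lay 15.3 kb beyond the widened span for RNAPII, 16.4 kb for TAF3 and 50.2 kb for H3K4me3. The smallest peaks of every full list had 10 tags, so weaker occupancy than that of a called peak was not detectable in these files.

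MUC2 (chromosome 11, 1075 to 1104 kb) had small peaks beside the gene. RNAPII was enriched 23.5-fold with 54 tags at chr11:1073162-1073902 and passed the filter at a false discovery rate of 4.63%. TAF3 was enriched 7.53-fold with 16 tags at chr11:1073345-1073762, with a false discovery rate of 49.1%. Both fell in the 2 kb flank left of the span, the side on which MUC2 starts, with summits 60 bp apart, and no H3K4me3 peak lay in the span. Without the flank MUC2 had no member.

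VIM, the mesenchymal gene, was occupied at an intermediate level. H3K4me3 had a peak of 58.3-fold with 227 tags at chr10:17271750-17273476 and a weaker one of 22.4-fold with 97 tags at chr10:17269564-17271074, in a span of chromosome 10 from 17270 to 17280 kb that is read rightward. RNAPII was enriched 67.9-fold with 195 tags at chr10:17271782-17272996. TAF3 was enriched 14.3-fold with 42 tags at chr10:17272038-17272891, with a false discovery rate of 10.05%, which is over the 5% allowed. The TAF3, RNAPII and right-hand H3K4me3 peaks shared a place about 2.5 kb inside the span, and the left-hand H3K4me3 peak met only an RNAPII peak of 12.0-fold under the filter.

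The right-hand VIM peak belonged to the class of filtered H3K4me3 peaks with filtered RNAPII and no filtered TAF3, which made up 14.4% of that list. It was 1 of the 7 filtered H3K4me3 members. Among the 1430 H3K4me3 peaks of its bin (38.48- to 64.92-fold) its TAF3 stood above 51.2%, with a bin median of 14.2-fold, and its RNAPII above 67.4%. TAF3 at the right-hand VIM peak was thus near the middle of H3K4me3 peaks of like strength. The left-hand VIM peak overlapped no TAF3 peak, and the lower quartile of TAF3 in its bin was 0 as well. It ranked at 16.0% of that bin for TAF3, ties included, and at 16.4% for RNAPII.

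TAF3 and RNAPII summits coincided at some of these genes and parted at others. They lay 4 bp apart at CDH1, 3 bp at KRT8 and 14 bp at VIM, compared with 210 bp at EPCAM, 400 bp at CDX2 and 627 bp at KRT18. The VIM TAF3 peak did not pass the filter. At the other TAF3 members under the filter the distances were 60 to 1490 bp. Over the 11750 filtered TAF3 peaks with an RNAPII peak the median was 43 bp and the quartiles 15 and 177 bp. The distance at KRT18 exceeded 94.1% and that at CDX2 88.8% of these. At KRT18 it was the H3K4me3 summit that coincided with the TAF3 summit, at 8 bp, where the median over filtered TAF3 peaks was 231 bp. The H3K4me3 summit lay 150 bp from the TAF3 summit at CDH1, 147 bp at EPCAM, 522 bp at KRT8, 380 bp at CDX2 and 143 bp at VIM.

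Tag density gave an order of the genes in each library with its counting error. For TAF3 the strongest peak of EPCAM had 244 tags per kb of peak (exact Poisson 95% interval 221 to 270), followed by KRT18 with 198 (179 to 219), KRT8 with 162 (146 to 179), CDH1 with 158 (140 to 179) and CDX2 with 142 (127 to 158). VIM had 49.2 (35.4 to 66.5) and MUC2 38.3 (21.9 to 62.2). EPCAM stood apart from KRT18, and CDX2 from VIM, beyond counting error, while the intervals of the other neighbours in this order overlapped.

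For H3K4me3 KRT8 had 459 tags per kb (433 to 486) and CDX2 451 (425 to 477), then EPCAM 369 (345 to 394) and CDH1 362 (337 to 388), then KRT18 301 (282 to 320) and VIM 131 (115 to 150). KRT8 and CDX2 overlapped each other, as did EPCAM and CDH1, and the other neighbours did not. For RNAPII the density was 398 (358 to 442) at CDH1 and 359 (331 to 389) at EPCAM, 300.2 (276 to 325) at CDX2 and 273 (261 to 286) at KRT18, 196 (187 to 204) at KRT8 and 160.5 (139 to 185) at VIM. It was 72.9 (54.7 to 95.1) at MUC2, 47.4 (29.3 to 72.5) at CDX1 and 36.04 (18.6 to 62.9) at VIL1. CDH1 overlapped EPCAM, CDX2 overlapped KRT18, and MUC2, CDX1 and VIL1 all overlapped each other. The widest RNAPII peaks, at the keratins, spread their tags over more bases, which lowers this measure. The CDH1 value is that of a 904 bp RNAPII peak, and the filtered RNAPII peak close beside it had 70.9 tags per kb. The place of CDH1 in the RNAPII order therefore depends on where the calls were split. By density the TAF3 order put KRT8 and KRT18 level with or above CDH1, whereas by fold enrichment CDH1 was highest.

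**Figure D5:**
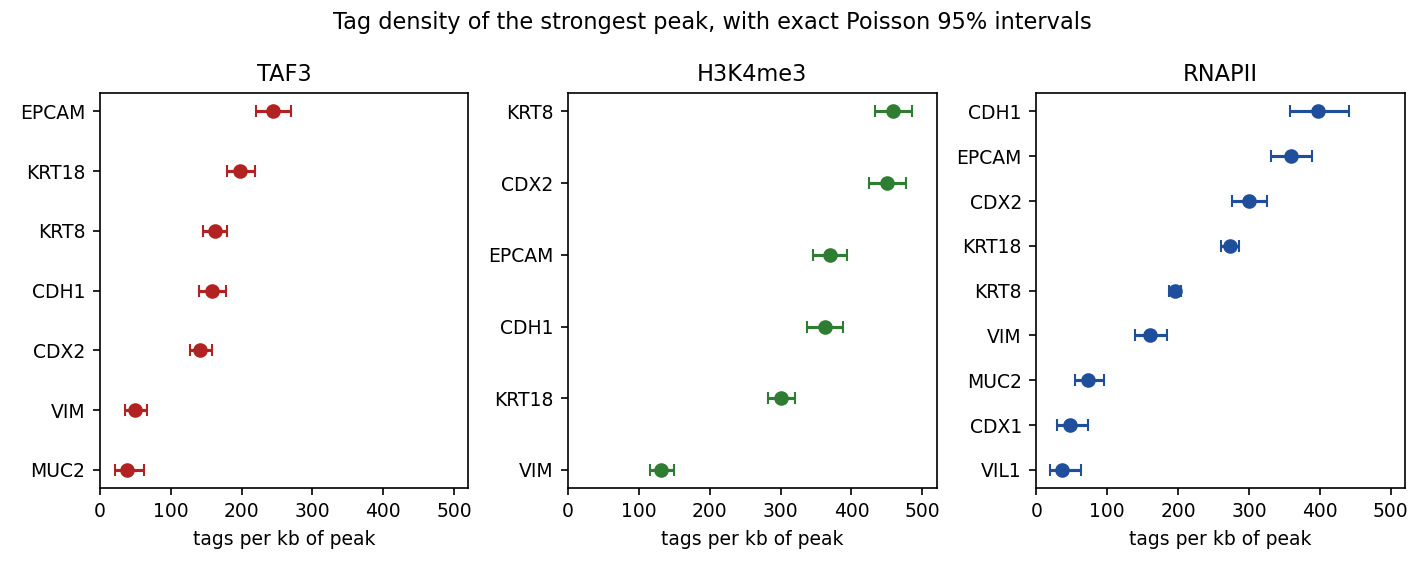
Tags per kb of the strongest TAF3, H3K4me3 and RNAPII peak of each gene with a peak, with exact Poisson 95% intervals (counting error only), sorted within each library. EPCAM is highest for TAF3, KRT8 and CDX2 for H3K4me3 and CDH1 and EPCAM for RNAPII. The place of CDH1 for RNAPII depends on where its adjacent peaks were split. VIM lies below CDH1, EPCAM, KRT8, KRT18 and CDX2 in each panel. It lies above MUC2, CDX1 and VIL1 for RNAPII, and its TAF3 interval overlaps that of MUC2.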

How the data were processed

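TAF3, H3K4me3 and RNAPII chromatin immunoprecipitation libraries were read from deposited peak lists, 1 full and 1 filtered list per antibody, and grouped by sample title. The submitters' processing notes name CASAVA 1.8.2, MACS 1.4.2 and hg19, and no aligner settings were found in the sources. Per the file headers MACS compared each library with the same input, at a p cutoff of 1e-05 and with at most 1 tag kept per position. This bounds the deposited tag count of dense peaks, which is not scaled to depth. Deposited fold enrichment is the ratio of summit tags to a local background from input. The deposited score (10 times the negative log10 p) was not ranked on. False discovery rates were deposited as percent.

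Every peak overlapping a span, given in kb, was kept, and all 10 genes were named. Percentiles are shares of a list below a value, with ties counted at 50%. Tag counts carry exact Poisson 95% intervals. Single libraries allow no test or p-value. The genes and lists were chosen with earlier results of these data known. Exons, introns and further genes were not analysed here, for want of an hg19 annotation. Overlaps, ranks and intervals were tested on simulated data, and 4 of 4 checks passed. Software was matplotlib 3.10.9, scipy 1.17.1, pandas 2.3.3, numpy 2.4.6 and Python 3.11.15.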

Additional observations from a re-analysis of the deposited data

How the results depend on the processing

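Of 33 alternatives for the counts of spans and peaks, 31 stayed within 1.5 times the reported count. With the authors' filtered lists in place of the full ones, members fell to 5 for TAF3 and 13 for RNAPII, against 13 and 25 with the full lists, because peaks under the filter were dropped. With the keratin span counted as 1, all 3 antibodies had filtered peaks in 4 of 9 spans. That count was 4 with no flank, with a flank of 10 kb and with the summit required inside the span, 5 with the full lists and 3 with the upper 50% of each filtered list. Counting the keratin span as 2, and the bins by tags per bp, were chosen after seeing the data. These bins by tags per bp re-sorted only the H3K4me3 peaks, and TAF3 was still ranked by fold enrichment. In them TAF3 at CDX2 stood above 10.04%, TAF3 at EPCAM above 90.6% and TAF3 at KRT8 above 52.0%. Ranks of TAF3 by tags within bins were not computed. The percentile of a strongest peak moved by at most 26.8 points when ranked by tags per bp, 38.98 points when ranked by tags per peak and 39.2 points when ranked among the filtered list, the last for RNAPII at MUC2, which stood above 33.2% there and above 72.3% of the full list. With the nearest RNAPII summit every distance at filtered TAF3 peaks was the same. Only the CDH1 TAF3 peak overlapped 2 RNAPII peaks, and the others overlapped 1, so only the CDH1 distance could have changed. No paired analysis was possible because each group has a single library, and for the same reason no replicate could be left out. Depth limits the weakest members: 12 tags at VIL1 carry an interval of 6.20 to 20.96.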
